A study of Homo sapiens with 13 samples.

Results

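The histone gene cluster and the major histocompatibility complex (MHC) lie next to each other on the short arm of human chromosome 6. Peaks of LEF1 and TCF7L2 were taken as members when their summit fell on chromosome 6 of hg19 between 26000 and 28000 kb, here called the histone span, or between 28478 and 33448 kb, here called the MHC span. The 12 peak lists held 3429979 peaks, and 12326 of them were members, 2967 in the histone span and 9359 in the MHC span. The first span is 2.00 Mb long and the second 4.97 Mb, which is 0.0646% and 0.161% of the length covered by the lists.

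CUT&RUN was done in Nalm6 cells, a single established line that derives from human acute lymphoblastic leukaemia of the B lineage and was kept in medium with charcoal-stripped serum. In this assay an antibody directs a nuclease to the chromatin that its target occupies, and the released DNA is sequenced. Each of the 2 antibodies was used on 3 control and 3 prednisolone samples, and the series describes the replicates as independent experiments. Prednisolone, a synthetic glucocorticoid, was given at 5 µM for 24 h. The controls received vehicle according to the protocol, while the treatment field gives none. One IgG sample was not analysed here.

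The histone span holds most of the replication-dependent histone genes, which lie in groups separated by stretches rich in genes for zinc finger proteins, butyrophilins and transfer RNAs. These genes are short, lack introns and are transcribed mainly while DNA is copied. The MHC is among the most gene-dense parts of the human genome. Its class I and class II genes encode the molecules that show peptides to T cells, and its class III genes, which lie between them, encode complement components, cytokines of the tumour necrosis factor family, chaperones and RNA-processing proteins. B-lineage cells express both class I and class II molecules. LEF1 and TCF7L2 belong to the TCF/LEF family, whose members bind the letters CTTTGA in either orientation and recruit β-catenin in canonical Wnt signalling.

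These letters were looked for in the RefSeq promoters (GRCh38.p14) of 2 gene families that give the spans their names, as CTTTGA or its reverse complement TCAAAG, on both strands of a window of 300 bases around each gene's start. Of 55 histone genes 50 had a promoter in the table, and 4 of these (8%) held a match. Of 21 HLA genes, which encode the class I and class II molecules, 16 had one and 0 held a match. Over all 27305 promoters 3578 held a match, which is 13.1%. The 4 histone gene promoters with a match are shown because they are where a TCF/LEF word stands in this family. They hold 3 distinct matches, since the match of H2AC8 is that of H2BC8 read on the opposite strand. The 250 bases before each start are given 5′ to 3′, with the matching letters in capitals.
H3C1: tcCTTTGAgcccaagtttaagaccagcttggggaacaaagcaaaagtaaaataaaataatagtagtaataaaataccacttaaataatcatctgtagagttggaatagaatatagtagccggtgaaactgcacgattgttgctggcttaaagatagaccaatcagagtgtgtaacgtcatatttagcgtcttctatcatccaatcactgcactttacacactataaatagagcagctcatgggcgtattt
H2BC8: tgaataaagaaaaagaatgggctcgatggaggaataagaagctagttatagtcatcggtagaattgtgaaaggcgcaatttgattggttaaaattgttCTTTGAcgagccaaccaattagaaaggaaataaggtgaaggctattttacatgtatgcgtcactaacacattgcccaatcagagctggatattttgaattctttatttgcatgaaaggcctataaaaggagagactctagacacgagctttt
H2AC8: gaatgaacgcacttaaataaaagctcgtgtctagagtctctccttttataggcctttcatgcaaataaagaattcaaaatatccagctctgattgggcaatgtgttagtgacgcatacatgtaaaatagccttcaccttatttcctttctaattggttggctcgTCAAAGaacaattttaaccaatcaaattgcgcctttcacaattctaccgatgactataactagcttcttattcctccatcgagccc
H1-5: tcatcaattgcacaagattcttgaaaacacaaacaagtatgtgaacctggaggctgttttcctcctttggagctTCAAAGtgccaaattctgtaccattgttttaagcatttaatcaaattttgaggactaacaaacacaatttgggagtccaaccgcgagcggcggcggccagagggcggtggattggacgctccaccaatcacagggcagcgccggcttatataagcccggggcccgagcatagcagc
The match began 248 bases before the start of H3C1, 152 before H2BC8, 86 before H2AC8 and 176 before H1-5. The peaks are on another build than these promoters, so no peak was placed on them, and a match describes letters only. No annotation of hg19 was used here, so the regions below carry positions but no gene or exon context.

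The lists differed in length, from 128863 to 395786 peaks, so the main comparison used the 20000 peaks of each list with the highest −log10 p-value, here called top peaks. A −log10 q-value of 2 or more was reached by 46742 to 79899 peaks of a LEF1 list. For TCF7L2 it was 3071 to 9730, so every TCF7L2 set of top peaks also holds weaker ones. Spread evenly, 20000 peaks would give 6.46 peaks per Mb. LEF1 top peaks were denser than that in both spans. In the histone span, the 3 LEF1 control libraries had 15, 20 and 22 top peaks and the 3 prednisolone libraries 21, 20 and 23. For TCF7L2 these numbers were 16, 16 and 15 in control and 12, 12 and 15 after prednisolone. Only the lowest LEF1 library, control 1, fell within the range of TCF7L2. That separation depends on equal peaks at the limit of 20000, which were drawn at random. With all of them kept, which lengthens those lists, TCF7L2 control 2 had 23 peaks in the span and prednisolone 3 had 18. With none kept they had 15 and 12. The LEF1 density was on average 1.56 times the even density (range over 6 libraries 1.16 to 1.78) and that of TCF7L2 1.11 times (0.928 to 1.24). Set against the rest of chromosome 6, outside both spans, these were 1.41 times (1.07 to 1.68) and 1.10 times (0.893 to 1.22).

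In the MHC span, LEF1 had 69, 66 and 68 top peaks in control and 79, 65 and 68 after prednisolone. TCF7L2 had 80, 96 and 92 in control and 94, 70 and 55 after prednisolone. The last library, prednisolone 3, was the lowest of all 12, while every control library of TCF7L2 lay above every LEF1 library. In TCF7L2 prednisolone 3, 7599 of the top peaks were drawn at random from 10998 equal ones. Its MHC number was 48 with none of these and 62 with all. TCF7L2 prednisolone 2 and 3 also had the fewest peaks with a −log10 q-value of 2 or more, 3511 and 3071. The mean density was 2.15 times the even density for LEF1 (2.02 to 2.46) and 2.53 times for TCF7L2 (1.71 to 2.99). Set against the rest of chromosome 6 it was 1.94 times for LEF1 (1.81 to 2.16) and 2.53 times for TCF7L2 (1.62 to 3.10). The MHC was therefore the denser of the spans in all 12 libraries, and the histone span stood near the even density for TCF7L2.

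**Figure D1:**
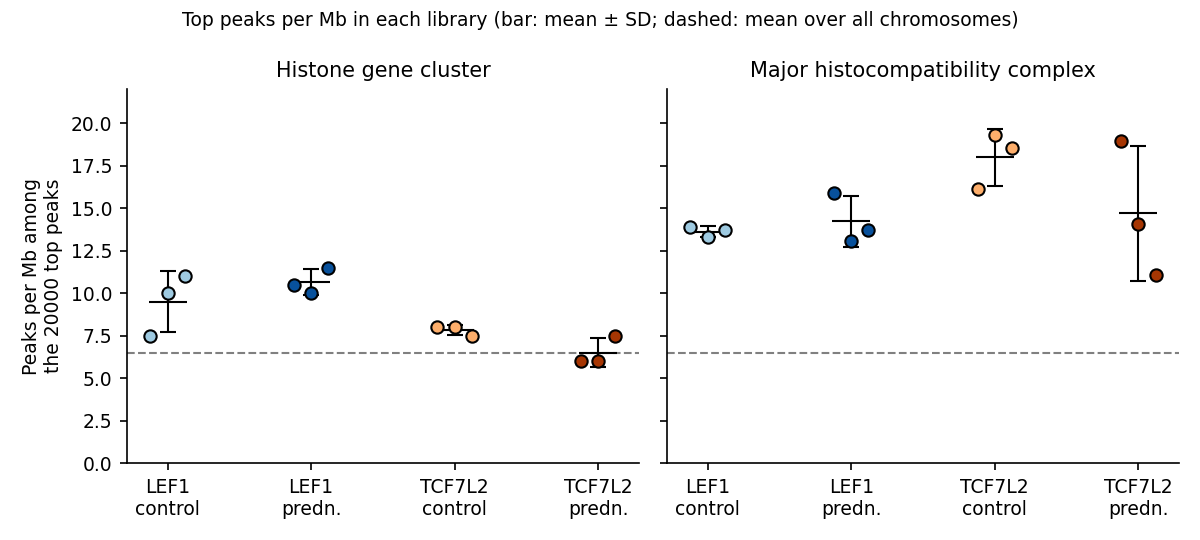
Peaks per Mb among the 20000 top peaks of each library (vertical axis) by antibody and treatment (horizontal axis), for the histone gene cluster and the major histocompatibility complex. Points are libraries, bars the mean and SD of 3 libraries, and the dashed line the even density of 6.46 peaks per Mb; LEF1 lies above the line in both panels, and TCF7L2 lies far above it only in the right panel.

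The balance between the spans leaned further to the MHC for TCF7L2 than for LEF1, although no contrast passed the adjustment for multiple tests. The ratio of histone to MHC density was lower for TCF7L2 in 6 of 6 comparisons of same-numbered libraries, with a mean log2 ratio of -1.13 against -0.45 for LEF1. This difference of -0.68 gave p = 0.01 (two-sided exact permutation test of antibody labels within treatment, for which 0.005 is the smallest possible p) and 0.12 after Benjamini-Hochberg adjustment over the 12 contrasts computed. The histone span alone had fewer top peaks for TCF7L2 by -0.48 on the log2 scale, or 0.719 times as many as for LEF1 (exact permutation p = 0.02, adjusted 0.12, lower in 5 of 6). For the MHC alone the difference was 0.21 (exact permutation p = 0.16, adjusted 0.4, higher in 5 of 6). Without TCF7L2 prednisolone 3, the lowest library in that span, it was 0.30 with an unadjusted exact permutation p of 0.025. This run was picked from those that left out each library in turn. Without TCF7L2 prednisolone 1 the MHC difference was smaller than 0.21, and the whole range is given below. None of the 12 contrasts passed 0.05 after adjustment. Replicate numbers did not pair the libraries, as given below, so the matching behind the counts out of 6 is arbitrary.

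The shortest peak length divides the libraries of each antibody into 2 sets of 3. Set A holds control 1 and prednisolone 2 and 3, and set B holds control 2 and 3 and prednisolone 1. The shortest peaks were 164 to 165 bp in LEF1 set A and 187 to 197 bp in set B, but 193 to 201 bp and 158 to 167 bp for TCF7L2. Sets were named by the place of control 1, so a set of that name may not be one batch across the antibodies. What the sets stand for is not given in the sources used here, and values were therefore also taken within each. The difference in the ratio was -0.34 within set A and -0.97 within set B. In the histone span it was -0.28 and -0.60, and in the MHC 0.057 and 0.37. Each of these means kept its direction within both sets. The MHC value of set A, however, averages opposite orders. TCF7L2 had 80 top peaks against 69 for LEF1 in control, and a lower mean after prednisolone, with 70 and 55 against 65 and 68.

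How the factors compared in the MHC depended on which peaks of the lists were counted. Among all peaks of the full lists, the MHC span was 2.11 times as dense as the whole list for LEF1 and 1.47 times for TCF7L2. Against the rest of chromosome 6 these means were 1.86 and 1.35. Among peaks whose −log10 q-value was 5 or more, here called strong peaks, the order turned, with 2.31 times for LEF1 and 5.17 times for TCF7L2. The numbers behind the last value are small, since TCF7L2 had 21, 14 and 29 such peaks in the MHC in control and 20, 12 and 12 after prednisolone, against 77 to 109 for LEF1. This cut kept 1271 to 3524 peaks of each whole TCF7L2 list and 21764 to 27309 of each LEF1 list. The strong peaks thus set the factors side by side at unlike list lengths. As a share of the full list, an alternative chosen after the data were seen, TCF7L2 was 0.691 times LEF1 in the MHC and lower in 6 of 6 comparisons. As a share of the strong peaks, TCF7L2 was 2.27 times LEF1 and higher in 6 of 6. Both gave an exact permutation p of 0.005, the smallest possible, and an adjusted p of 0.027 over the 16 contrasts of these shares. A −log10 q-value of 0 was held by 48.4% to 78.5% of the peaks of a full TCF7L2 list. For LEF1 this range was 0 to 20.7%. Whether the full-list difference reflects these peaks was not tested.

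In the histone span TCF7L2 was the lower both in the full lists and among the strong peaks. The full lists were 1.80 times as dense there as over the whole list for LEF1 and 1.01 times for TCF7L2. The 6 TCF7L2 values (0.895 to 1.08) all lay below the 6 LEF1 values (1.54 to 1.97). Against the rest of chromosome 6 the means were 1.59 for LEF1 and 0.928 for TCF7L2. As a share of the full list TCF7L2 was 0.562 times LEF1 (lower in 6 of 6, exact permutation p = 0.005, adjusted 0.027), with log2 differences of -0.79 within set A and -0.88 within set B. Whether this full-list difference reflects the peaks with a −log10 q-value of 0 was likewise not tested. Of the strong peaks, LEF1 had 24, 25 and 26 in control and 26, 29 and 24 after prednisolone. TCF7L2 had 1 in each of its 6 libraries. As a share of the strong peaks TCF7L2 lay between 0.0284% and 0.0787%, below the LEF1 range of 0.0879% to 0.113%. The size of that difference rests on these single peaks, which lay at the same region, chr6:27145361-27146213, in all 6 libraries. The TCF7L2 share therefore varied only with the number of strong peaks in the whole list. The p-values that follow do not measure a spread of TCF7L2 counts in the span. With the pseudocount of 0.5 used for all log2 values TCF7L2 was 0.708 times LEF1 (lower in 5 of 6, exact permutation p = 0.04, adjusted 0.16), and without it 0.481 times (lower in 6 of 6, exact permutation p = 0.005, adjusted 0.02).

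The spans were then cut at rounded textbook boundaries. Histone gene group 1 covered 26.0 to 26.3 Mb, group 2 covered 27.05 to 27.15 Mb and group 3 covered 27.75 to 27.9 Mb. The MHC was cut into extended class I up to 29.6 Mb, class I to 31.5 Mb, class III to 32.2 Mb and class II with extended class II beyond. Group 2, which is 100 kb long, held 2 LEF1 top peaks in each of 6 libraries and 1 TCF7L2 top peak in each of 6. Group 1 held 2, 5 and 3 LEF1 top peaks in control and 3, 2 and 4 after prednisolone. TCF7L2 had 4, 2 and 3 there in control and 1, 0 and 1 after prednisolone. The densest LEF1 stretch was the last 100 kb of the histone span, after group 3, with 40.0 ± 10.0 top peaks per Mb in control and 46.7 ± 15.3 after prednisolone (SD, n = 3 each). TCF7L2 had 1 to 5 top peaks in that stretch, and LEF1 3 to 6. These are small counts, and the ranges of the factors overlap.

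In class III of control cells TCF7L2 had more top peaks than LEF1. TCF7L2 had 20, 25 and 29 class III top peaks in control and 21, 12 and 10 after prednisolone. LEF1 had 7, 10 and 7 in control and 6, 8 and 11 after prednisolone. In control cells the 3 TCF7L2 libraries thus lay above the LEF1 libraries, with 35.2 against 11.4 top peaks per Mb, and after prednisolone the ranges met. Within set A the class III count for TCF7L2 went from 20 in control to 12 and 10, and within set B from 25 and 29 to 21. In class I and class II the factors overlapped. Class I held 24 to 36 top peaks for LEF1 and 22 to 38 for TCF7L2, and class II held 22 to 28 for LEF1 and 14 to 29 for TCF7L2. Extended class I, the longest stretch after class I and class II, held 4 to 10 for LEF1 and 6 to 12 for TCF7L2, near the even density. Over the full lists the means of class II showed the opposite order to those of class III. Relative to the whole list, class II was 2.78 times as dense for LEF1 and 1.70 times for TCF7L2 in control, and 3.15 and 1.47 times after prednisolone. Class III was 1.11 and 1.79 times as dense in control and 1.15 and 1.43 times after prednisolone. The class III libraries of the factors overlapped, with 0.915 to 1.40 for LEF1 and 1.39 to 2.09 for TCF7L2 in control. After prednisolone these ranges were 0.841 to 1.51 and 0.614 to 1.92.

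**Figure D2:**
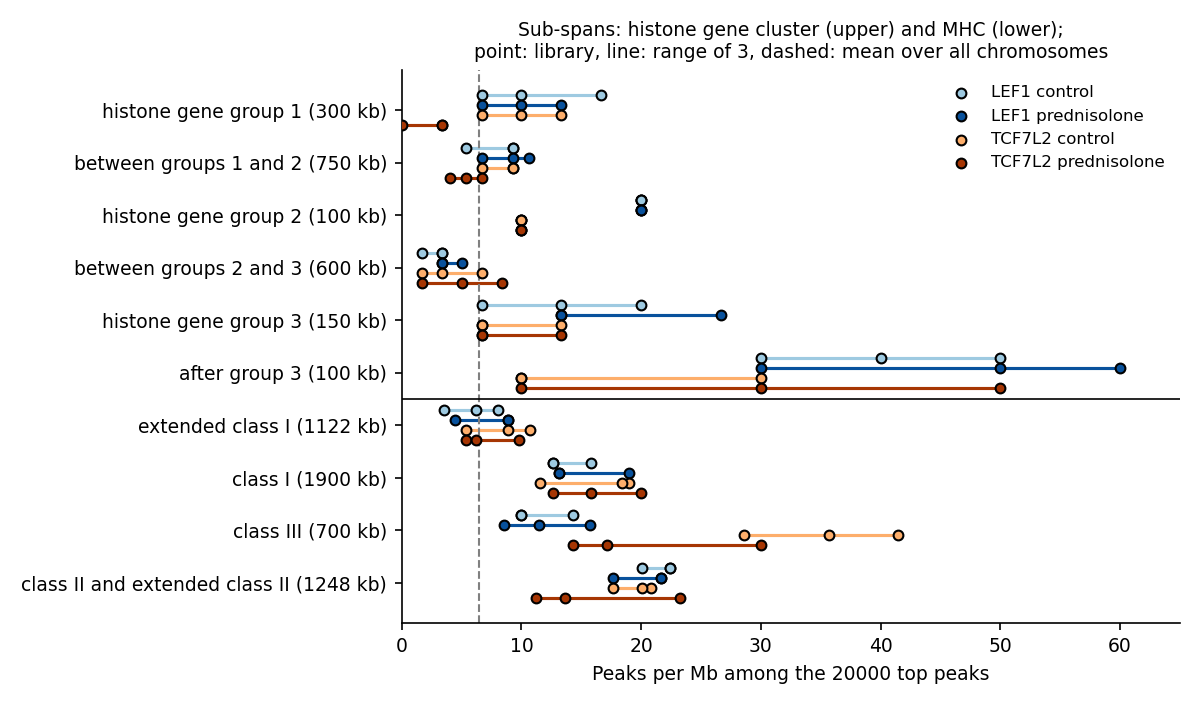
Peaks per Mb among the 20000 top peaks (horizontal axis) in each stretch of the histone span (upper part) and the MHC span (lower part). Points are libraries, lines the range of 3, and the dashed line the even density of 6.46 peaks per Mb; class III shows TCF7L2 control libraries at 20, 25 and 29 peaks to the right of all LEF1 libraries, and the last 100 kb of the histone span shows LEF1 at 3 to 6 peaks.

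Top peaks of the 6 libraries of an antibody were merged into regions wherever they shared at least 1 bp. LEF1 had 37 regions in the histone span, of which 9 held a top peak in all 6 libraries, and 152 in the MHC, of which 18 did. Over all chromosomes 20.5% of LEF1 regions did so. Regions found in 1 library only numbered 11 of 37 and 54 of 152 for LEF1, beside 30.3%. TCF7L2 had 63 regions in the histone span, of which 1 held a top peak in all 6 libraries, and 263 in the MHC, of which 17 did. Over all chromosomes 2.2% of TCF7L2 regions did so. Regions found in 1 library only numbered 53 of 63 and 184 of 263 for TCF7L2, beside 78.1%. The share found in all 6 was thus 24.3% and 11.8% for LEF1 in the histone span and the MHC, and 1.59% and 6.46% for TCF7L2.

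**Figure D3:**
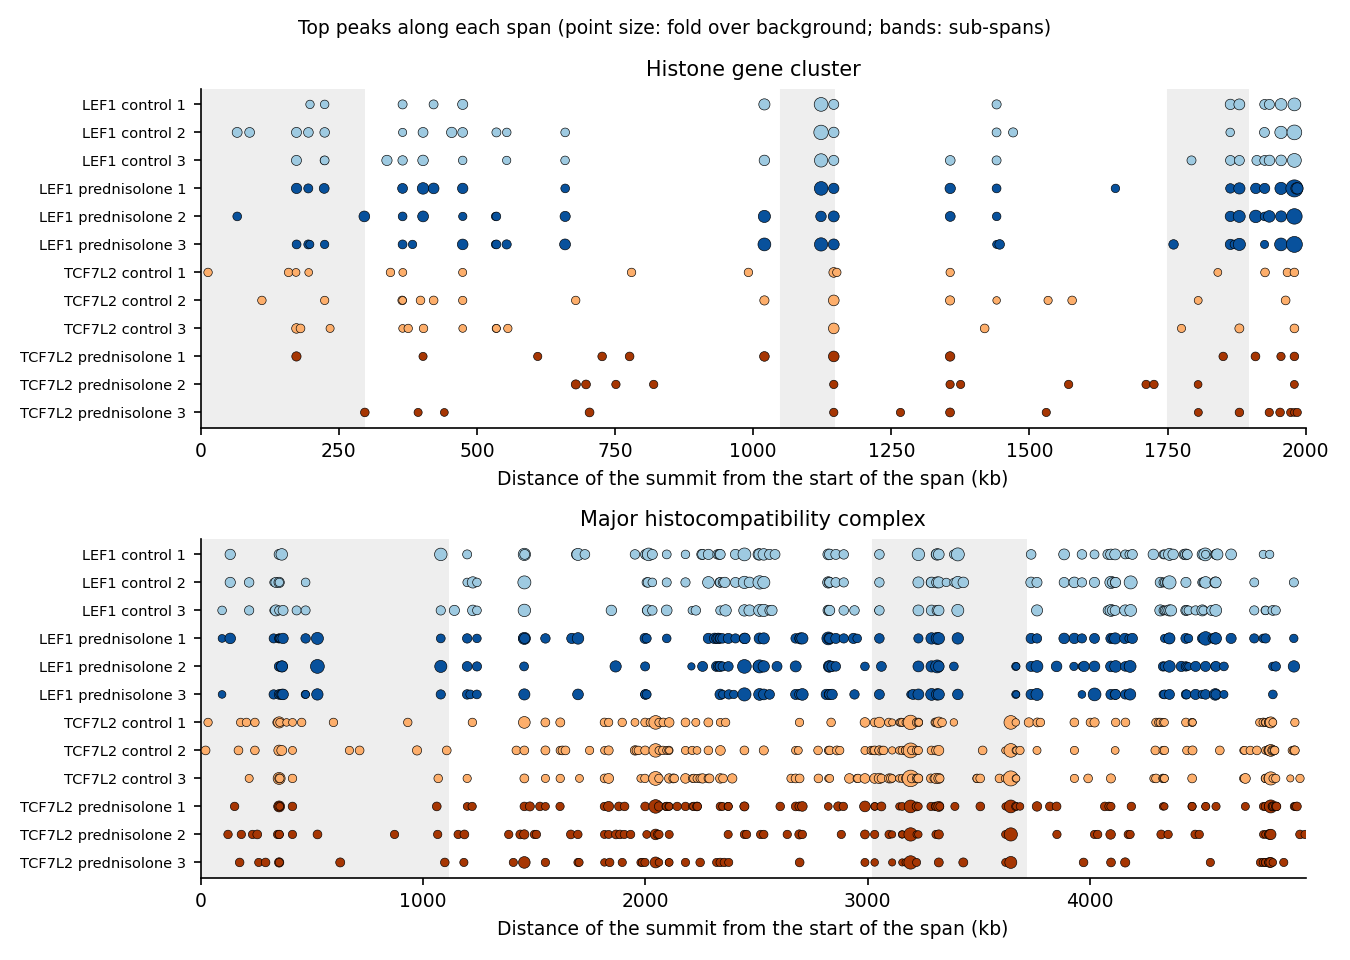
Top peaks of the 12 libraries along the histone span and the MHC span, by distance of the summit from the start of the span in kb (horizontal axis), with 1 row per library. Point size follows the fold over background that the authors deposited, and shaded bands mark the 3 histone gene groups (upper panel) and extended class I and class III (lower panel); columns of points are regions found across libraries, of which LEF1 had 9 in the histone span and TCF7L2 had 1.

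Regions found in all 6 libraries of an antibody are ordered below by their lowest rank over those libraries, and the first is called the strongest. The strongest LEF1 region of the histone span was chr6:27977357-27985489, in the last 100 kb of that span. The authors' fold over the background was 10.6, 14.7 and 12.6 in the control libraries and 20.4, 16.4 and 17.5 after prednisolone. All folds after prednisolone lay above those in control, as they did for 11% of the LEF1 regions found in all 6 libraries over all chromosomes. The ranks of its best peak were 402, 37 and 126 in control and 20, 63 and 32 after prednisolone, and these overlapped. Each full TCF7L2 list held a weaker peak within this region, with folds from 2.61 to 3.85. That of TCF7L2 control 2 ranked only 96397, with a −log10 q-value of 0.0546. Its summit, at 27985140, lay apart from the LEF1 summits at 27979438 to 27979488. A fold belongs to its own list, and folds are set side by side here without a test.

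The only TCF7L2 region of the histone span with a top peak in all 6 libraries lay in histone gene group 2, at chr6:27145361-27146213 when merged over both antibodies. It was also the only region of this span with a top peak in all 12 libraries, of 78 regions, beside 0.713% of regions over all chromosomes. The LEF1 folds were 5.77, 6.36 and 5.86 in control and 6.28, 7.24 and 7.20 after prednisolone. The TCF7L2 folds were 5.32, 6.85 and 6.75 in control and 6.78, 3.37 and 3.38 after prednisolone. The lowest 3 TCF7L2 values are the 3 libraries of set A, in which the fold was 5.32 in control, while set B held 6.75 to 6.85. The median summits of the factors were 24 bp apart.

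A close neighbour in the same group behaved differently. At chr6:27121821-27126172 LEF1 had folds of 12.5, 14.0 and 11.6 in control and 12.4, 6.51 and 11.5 after prednisolone, and no TCF7L2 library had a top peak. In the full TCF7L2 lists 5 of 6 libraries had a peak there, the best at rank 46018. The other LEF1 region of this kind in the histone span was chr6:27862252-27864572 in histone gene group 3, with folds of 6.37, 3.65 and 5.47 in control and 4.92, 6.25 and 6.21 after prednisolone. No full TCF7L2 list held a peak there. In all, 2 of 78 regions of the histone span and 4 of 336 of the MHC had a LEF1 top peak in all 6 libraries and no TCF7L2 top peak, against 1.57% of regions over all chromosomes.

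The reverse pattern, TCF7L2 in all 6 libraries with no LEF1 top peak, was found at 0 regions of the histone span and 10 of the MHC, against 0.636% over all chromosomes. No peak of any full LEF1 list was found at 3 of the 10. The strongest TCF7L2 region of the MHC was chr6:31669400-31672200 in class III. Its TCF7L2 folds were 14.1, 15 and 19.1 in control and 10.5, 11.7 and 11.7 after prednisolone, and its ranks were 116, 153 and 124 in control and 173, 142 and 123 after prednisolone. The folds were lower in all 3 prednisolone libraries, as they were at 18.3% of the TCF7L2 regions found in all 6 libraries, and the ranks overlapped. LEF1 had a peak there in 4 of 6 full lists, the best at rank 17674, and so a top peak in 1 library.

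The next TCF7L2 regions were chr6:33289555-33292978 in extended class II and chr6:30523036-30525775 in class I. At the first, TCF7L2 folds were 7.36, 8.74 and 11.3 in control and 11, 6.27 and 5.51 after prednisolone, so the groups overlapped. At the second, they were 12.2, 11.9 and 12.7 in control and 12.2, 6.71 and 7.16 after prednisolone. Within set B the latter folds were 11.9 and 12.7 in control and 12.2 after prednisolone, and within set A 12.2 in control and 6.71 and 7.16. The low values were thus the 2 prednisolone libraries of set A. A second class III region, chr6:32120651-32123316, had folds of 12.3, 12.4 and 15.3 in control and 10.7, 11.4 and 9.0 after prednisolone.

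**Figure D4:**
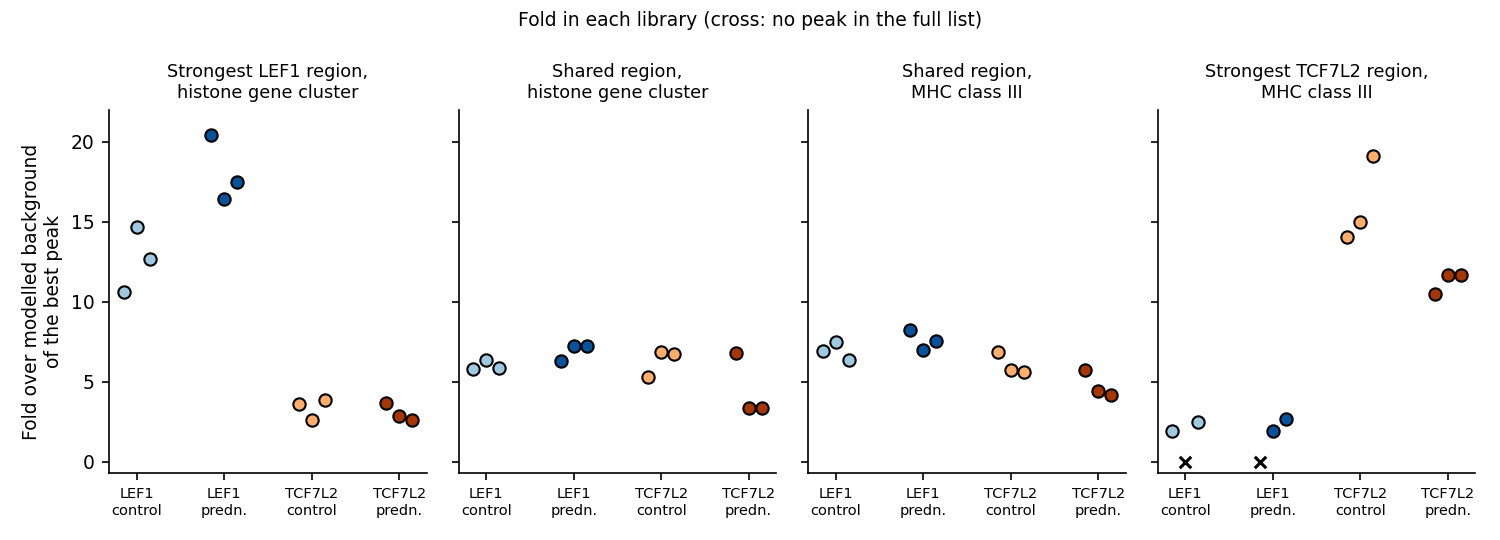
Fold over the modelled background, as the authors deposited it, of the best peak in each library (vertical axis) at 4 regions, by antibody and treatment (horizontal axis). Points are libraries and crosses libraries with no peak in the full list; LEF1 reaches 20.4 at the strongest LEF1 region of the histone span, where TCF7L2 stays at 2.61 to 3.85, and TCF7L2 reaches 19.1 at the strongest class III region, where LEF1 has a peak in 4 of 6 lists.

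The strongest LEF1 region of the MHC, at chr6:31797113-31798591 when merged over both antibodies, was shared with TCF7L2. It lies in class III. The LEF1 folds were 6.93, 7.48 and 6.35 in control and 8.26, 6.96 and 7.56 after prednisolone. The TCF7L2 folds were 6.89, 5.74 and 5.61 in control and 5.72, 4.39 and 4.17 after prednisolone. The median summits of the factors were 14 bp apart. The other 2 MHC regions with a top peak in all 12 libraries were chr6:28830596-28832706 in extended class I, with median summits 8 bp apart, and chr6:29932241-29935755 in class I, with median summits 167 bp apart. These are 3 of 336 regions.

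The next LEF1 regions, both in class II, differed in their TCF7L2 peaks. At chr6:33042619-33044854 the LEF1 folds were 5.09, 6.97 and 8.70 in control and 8.09, 5.81 and 5.27 after prednisolone, and TCF7L2 had a peak in 3 of 6 full lists. At chr6:32810917-32814086 the LEF1 folds were 3.86, 3.21 and 3.56 in control and 3.03, 4.02 and 4.08 after prednisolone, and every full TCF7L2 list held a peak, the best at rank 1010. At both regions the control and prednisolone folds of LEF1 overlapped.

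Consensus regions, those with a top peak in all 3 libraries of a group, measured how far the factors shared places. In control cells TCF7L2 overlapped 2 of 10 LEF1 consensus regions of the histone span and 7 of 27 of the MHC. The latter share was 25.9% (95% Clopper-Pearson interval 11.1 to 46.3), beside 20.8% over all chromosomes. After prednisolone it overlapped 2 of 11 in the histone span and 3 of 33 in the MHC, which is 9.09% (1.92 to 24.3) beside 10.6%. Seen from TCF7L2, LEF1 overlapped 7 of 37 consensus regions of the MHC in control, 18.9% (7.96 to 35.2), beside 47.3% over all chromosomes. After prednisolone it overlapped 4 of 20, which is 20.0% (5.73 to 43.7) beside 45.0%. In the histone span LEF1 overlapped 2 of 2 TCF7L2 consensus regions in control and 2 of 3 after prednisolone. For the top peaks, both MHC intervals seen from TCF7L2 lie below the share over all chromosomes, whereas the MHC intervals seen from LEF1 hold theirs. With the full lists in place of the top peaks, LEF1 overlapped 66 of 123 TCF7L2 regions of the MHC in control, 53.7% beside 67.8%, and 39 of 61 after prednisolone, 63.9% (50.6 to 75.8) beside 67.3%, so that this interval holds the share over all chromosomes. In the histone span LEF1 then overlapped 11 of 17 and 9 of 10 TCF7L2 regions. Seen from LEF1, TCF7L2 overlapped 10 of 126 full-list consensus regions of the histone span in control, 7.94% (3.87 to 14.1), below the 19.1% over all chromosomes, and 9 of 102 after prednisolone, 8.82% (4.11 to 16.1) beside 12%. With 10000 top peaks the MHC shares seen from TCF7L2 were 20.8% (7.13 to 42.2) beside 35.7% in control and 22.2% (6.41 to 47.6) beside 32.0% after prednisolone, and both intervals hold theirs. The intervals cover counting error only.

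For prednisolone against control no contrast of the spans over the 20000 top peaks reached 0.1, the smallest p that 3 against 3 libraries allow. For LEF1 the log2 number of top peaks after prednisolone minus that in control was 0.18 in the histone span (exact permutation p = 0.5) and 0.057 in the MHC (p = 0.9 in the same exact test). For TCF7L2 the values were -0.27 (exact permutation p = 0.2) and -0.32 (exact permutation p = 0.3). Within sets A and B the LEF1 values were 0.50 and 0.0016 in the histone span and -0.053 and 0.24 in the MHC. The TCF7L2 values were -0.25 and -0.36 in the histone span and -0.36 and 0.00032 in the MHC, so the lower MHC number after prednisolone was found in set A and not in set B. An exact permutation p of 0.1 was reached in other settings, by LEF1 in the histone span with 10000 top peaks (0.48) and by TCF7L2 as a share of the full list in the histone span (-0.15) and as a share of the strong peaks in the histone span (0.80) and the MHC (0.30). Since every TCF7L2 library had 1 strong peak in the histone span, the value of 0.80 reflects the number of strong peaks in the whole list. The treatment effect in TCF7L2 minus that in LEF1 was -0.45 in the histone span (exact permutation p = 0.06, adjusted 0.24) and -0.38 in the MHC (exact permutation p = 0.195, adjusted 0.4). In the histone span it was -0.56 with an unadjusted exact permutation p of 0.02 without LEF1 control 3. Without TCF7L2 prednisolone 3 it was -0.55 with 0.03 in the same test, also unadjusted. These runs were picked from those that left out each library in turn. Without LEF1 control 1 the difference was smaller in size than -0.45, and the whole range is given below.

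Gained regions were those with a top peak in each of the 3 prednisolone libraries and in 0 of the controls, and lost regions the converse. LEF1 gained 0 regions in the histone span and 3 of 152 in the MHC, beside 2.84% over all chromosomes, and lost 0 and 3, beside 1.93%. TCF7L2 gained 0 in the histone span and 1 of 263 in the MHC, beside 0.362%, and lost 1 of 63 and 3 of 263, beside 1.24%. The MHC shares, 1.97% for LEF1 in each direction, 0.38% gained and 1.14% lost for TCF7L2, stood near those over all chromosomes. These counts grew where 1 library was left out, and so did the shares over all chromosomes given in parentheses. LEF1 gained 9 regions in the MHC without prednisolone 1 (6.24%), 6 without prednisolone 2 (4.24%) and 5 without prednisolone 3 (4.03%). It lost 11 without control 1 (4.18%) and 5 without prednisolone 1 (3.68%). TCF7L2 lost 9 in the MHC without control 1 (3.18%) or prednisolone 1 (2.55%) and 6 without control 3 (2.48%). It gained 3 without prednisolone 3 (1.08%) and 2 without control 1 (0.535%). In the histone span TCF7L2 lost 2 without control 1, LEF1 gained 1 without prednisolone 1, and LEF1 lost 1 without prednisolone 3 (2.89%).

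The only LEF1 gain with no peak in any full control list was chr6:29002260-29004280 in extended class I, where the prednisolone libraries had folds of 9.18, 12.8 and 7.97. The other LEF1 gains were chr6:31152962-31154708 (folds of 3.84, 4.65 and 4.28 in control against 4.93, 7.33 and 5.99) and chr6:30475793-30477562 (4.50, 3.80 and 3.29 against 6.09, 4.38 and 4.35), both in class I. At these the control lists held peaks below the top 20000, and at the second the fold ranges overlapped. LEF1 losses were at chr6:32808073-32808989 in class II and at chr6:30489144-30493866 and chr6:30509147-30510594 in class I, and every prednisolone list still held a weaker-ranked peak at each.

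For TCF7L2, chr6:26474204-26474685 between histone gene groups 1 and 2 had folds of 3.08, 3.30 and 2.65 in control and no peak in any prednisolone list. In class III, chr6:31527856-31529281 had folds of 3.32, 2.84 and 2.61 in control and likewise no peak after prednisolone. Close to it, chr6:31530029-31530678 had folds of 6.34, 4.60 and 6.27 in control and 1.76 in prednisolone 1, with no peak in the other prednisolone lists. The third loss, chr6:30761281-30761855 in class I, went from 4.10, 3.77 and 3.85 to no peak, 2.25 and 3.21. The 1 gained region, chr6:32097826-32098479 in class III, had folds of 1.36, 1.52 and 1.55 in control and 2.19, 2.81 and 2.82 after prednisolone. These 3 lost MHC regions and the gained one had −log10 q-values from 1.32 to 8.02 in the libraries with a top peak.

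Among the regions found in all 6 libraries, ranks within the equal lists of 20000 were compared, a count added after the data were seen. For LEF1, 2 of 9 histone regions and 4 of 18 MHC regions ranked lower in every prednisolone library than in every control library, beside 14.7% over all chromosomes, and 0 of 9 and 0 of 18 ranked higher, beside 11.5%. The histone regions were chr6:27121821-27126172 and chr6:27438938-27441091. In the MHC they were chr6:29932241-29935755, chr6:31010096-31011344, chr6:31703665-31707475 and chr6:32907881-32910102. The strongest of them, chr6:31703665-31707475 in class III, ranked 331, 804 and 1058 in control and 5849, 1982 and 1468 after prednisolone. For TCF7L2, 2 of 17 MHC regions ranked lower, beside 11.5%, and 0 ranked higher, beside 10.5%. They were chr6:28830709-28832702, with ranks of 323, 408 and 385 in control and 469, 1038 and 596 after prednisolone, and chr6:31632194-31633731.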

How the data were processed

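The authors deposited 1 peak list per library for 12 libraries, with intervals, summits and, for each peak, a fold ratio over background and the −log10 of both a p-value and a q-value, which are the authors' own values. Peaks were called with MACS2 on hg19, per the submitters' processing notes. The MACS2 version, aligner, control library, duplicate handling and treatment of reads with several matches are not given in the sources used here. The effect of the last on these spans, which hold similar gene copies, was not tested. The lowest deposited −log10 p-value was 1.30. Read totals are unknown, so depth could not be weighed.

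Each list was ranked by −log10 p-value, with equal peaks at the limit drawn at random with a fixed seed, and cut to 20000. Log2 peaks per Mb used a pseudocount of 0.5 and were compared by two-sided exact permutation tests with Benjamini-Hochberg adjustment over 12 contrasts, tested on simulated data (Python 3.11.15, pandas 2.3.3, NumPy 2.4.6, SciPy 1.17.1). Replicates count as separate experiments per the labels. Regions merged top peaks sharing 1 bp. The named regions were the 5 per span and antibody found in all 6 libraries with the best worst rank, up to 5 gained and lost each, and those found in all 12; other regions were named after their values were seen. The spans, lists and members were chosen with earlier results of these data known. Sub-span boundaries are rounded textbook positions. The planned gene context and sequences around summits need an hg19 genome and were not run. Alternatives covered the list restriction and length, equal peaks, bases covered, span membership, left-out replicates, the replicate block, library sets and narrower spans.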

Additional observations from a re-analysis of the deposited data

How the results depend on the processing

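Values are log2 differences unless called regions. With full lists, the factor difference in the histone span was -0.49 (exact permutation p = 0.1) and in the MHC -0.19. LEF1 treatment values were -0.14 (histone), -0.064 (MHC) and -0.073 (ratio of histone to MHC), and the difference between the treatment effects in the ratio was 0.079. Restricting lists to a −log10 q-value from 2 upward, the MHC factor difference was -2.80, LEF1 treatment values were -0.095, -0.069 and -0.026, and the ratio's difference between effects was 0.22. From 5 upward these were -2.44 for the MHC factor difference, -0.15 for LEF1 treatment in the MHC, 0 for TCF7L2 treatment in the histone span and 0.29 for the ratio. These counts are not scaled to the number of peaks left in a list, and TCF7L2 had 1271 to 3524 strong peaks against 21764 to 27309 for LEF1. With 10000 top peaks the MHC factor difference was 0.49 (exact permutation p = 0.005), LEF1 treatment in the MHC -0.11 and TCF7L2 treatment in the histone span 0.24. Keeping all equal peaks gave -0.30 (exact permutation p = 0.105) for the histone factor difference. Keeping none gave -0.59 (exact permutation p = 0.025) for the histone difference between effects and -0.0062 for TCF7L2 treatment in the ratio. Bases covered gave -0.63 for the MHC factor difference and 0.21 for the ratio's difference between effects. Histone gene groups alone gave -0.016 and -0.44 for LEF1 and TCF7L2 treatment in the ratio, and the MHC without class II 0.0040 for the difference between effects. Apart from list length, the causes of these changes were not tested.

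Of the shares chosen after the data were seen, that of the full list gave -0.0080 for LEF1 treatment in the histone span and -0.53 for the MHC factor difference. That of strong peaks gave 1.18 for the MHC factor difference, 0.80 and 0.62 for TCF7L2 treatment and the difference between effects in the histone span, and -0.031, 0.30 and 0.33 for LEF1 treatment, TCF7L2 treatment and the difference between effects in the MHC. Without the pseudocount these shares gave -0.0084 and -0.53, then 1.15, 0.80 and 0.62, and -0.031, 0.28 and 0.31, in the same order. Within set A the histone factor difference was -0.28 and the ratio's -0.34, LEF1 treatment 0.50 (histone) and 0.56 (ratio), and the differences between effects -0.75 (histone) and -0.44 (ratio). Within set B, LEF1 treatment was 0.0016 (histone) and -0.23 (ratio), and TCF7L2 treatment 0.00032 (MHC) and -0.36 (ratio).

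Replicate numbers did not pair the libraries, since same-numbered libraries correlated at -0.055 to -0.0080 in their deviations between treatments of an antibody and at -0.020 to -0.00067 between the antibodies. With the replicate block the histone factor difference stayed at -0.48 with an exact p of 0.0625, and that in the ratio at -0.68 with an exact p of 0.03125. The share of strong peaks in the histone span, with the pseudocount, went from an exact permutation p of 0.04 to 0.09375 between the factors. No other contrast of the main setting or of the added shares changed its side of 0.05 under the block.

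Leaving out each replicate gave -0.56 to -0.29 for the histone difference between effects, 0.11 to 0.30 for the MHC factor difference, -0.025 to 0.11 for LEF1 treatment in the MHC, and -0.050 to 0.23, -0.24 to 0.30 and -0.36 to 0.18 for LEF1 treatment, TCF7L2 treatment and the difference between effects in the ratio. The number of regions then ranged from 0 to 1 (LEF1 gained and LEF1 lost, histone), 3 to 9 (LEF1 gained, MHC), 3 to 11 (LEF1 lost, MHC), 1 to 3 (TCF7L2 gained, MHC), 1 to 2 (TCF7L2 lost, histone) and 3 to 9 (TCF7L2 lost, MHC).

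With full lists LEF1 gained 4 and lost 5 of 663 regions in the histone span, and gained 4 and lost 11 of 1717 in the MHC. TCF7L2 gained 1 and lost 6 of 894 in the histone span, and gained 2 and lost 20 of 2745 in the MHC. The shares over all chromosomes were then 0.282% and 0.71% for LEF1 and 0.126% and 0.439% for TCF7L2. With 10000 top peaks LEF1 gained 1 (histone) and 0 (MHC), beside 3.17%, and TCF7L2 gained 0 (MHC), beside 0.851%, and lost 0 (histone), beside 1.77%. Requiring absence from the full lists left 1 LEF1 gain, 0 LEF1 losses, 0 TCF7L2 gains and 1 TCF7L2 loss in the MHC, and the 1 TCF7L2 loss in the histone span. The shares over all chromosomes were 0.0569%, 0.00813%, 0.0592% and 0.192% in that order. Without read totals, differences in depth between libraries could not be measured.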
